A study of Mus musculus with 18 samples.

Results

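Major histocompatibility complex (MHC) class I molecules carry peptides from inside the cell to its surface, and 10 genes of this route were followed here in mouse embryonic fibroblasts (MEFs). The genes were H2-K1 and H2-D1 (the classical class I heavy chains), B2m (their light chain), Tap1 and Tap2 (the peptide transporter), Tapbp (tapasin), Psmb8, Psmb9 and Psmb10 (the catalytic subunits of the immunoproteasome) and Nlrc5 (a transactivator of class I genes). They were chosen by gene symbol, and 9 of the 10 were among the 16528 genes named on the arrays. Of these, 7 had a gene-level row that carried their symbol alone, out of 23332 rows. H2-K1 and H2-D1 had only exon probe sets of their own, and Nlrc5 was not analysed here because no row carried its symbol. In all, 93 of the 229581 exon probe sets carried 1 of the symbols alone. A further 4 gene-level rows and 10 exon probe sets carried a heavy chain symbol together with other symbols, and they are described apart.

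RNA came from MEFs of 3 genotypes, each with 3 Affymetrix Mouse Exon arrays: AGO2 -/-, which lack the Argonaute protein that acts on targets of small RNAs, Dicer -/-, which lack the enzyme that processes microRNA precursors, and wild type. All were grown to subconfluency in DMEM with fetal calf serum and penicillin-streptomycin, without any interferon or other agent named in the labels. The AGO2 null line had a different source from the other lines, no strain or Cre is named, and the labels describe 1 line per genotype, so genotype, line and source cannot be told apart. The sample titles call the replicates biological, but the labels name no separate cultures or animals for them. The p-values therefore cover only the spread among these arrays, and part of it may be technical. Each array entered as a gene-level and an exon-level sample (18 samples in all), so the levels are not independent of each other. H2-K1 and H2-D1 are polymorphic between mouse strains, and which alleles the lines carry was not tested.

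In most cells, proteasomes cut cytosolic proteins into peptides, the TAP transporter moves them into the endoplasmic reticulum, and tapasin with calreticulin and Pdia3 loads them on class I heavy chains bound to beta-2-microglobulin. Interferons raise this route as a whole: immunoproteasome subunits take the place of the constitutive catalytic subunits and transcription of the heavy chains, Tap1 and Tapbp rises. Fibroblasts carry class I at a basal level, and cells of the early embryo are known for low levels of it.

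Class I promoters hold an upstream enhancer with sites for NF-kappaB, interferon regulatory factors (the ISRE) and CREB or ATF proteins. The promoter windows of H2-K1, H2-D1, B2m and Tap1 are shown because most of these genes were lower in Dicer null cells, and because Tap1 and Psmb9 start back to back and share theirs. Each is the 250 bases before the start of transcription (RefSeq, assembly GRCm38.p6). Windows existed for 8 of the 10 genes. Capitals mark matches, on either strand, to GAAA, any 2 bases and GAAA (ISRE core), GGGNNTTCC (kappaB), TTCNNNGAA (GAS, the STAT site) or TGACG (CRE core).
H2-K1, chr17:34000348-34000597, minus strand: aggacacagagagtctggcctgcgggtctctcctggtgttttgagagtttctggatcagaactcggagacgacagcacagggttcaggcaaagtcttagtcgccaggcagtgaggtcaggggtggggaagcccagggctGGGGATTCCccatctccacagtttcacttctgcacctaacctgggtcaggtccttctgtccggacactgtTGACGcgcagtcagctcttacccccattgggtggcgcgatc
H2-D1, chr17:35262844-35263093, plus strand: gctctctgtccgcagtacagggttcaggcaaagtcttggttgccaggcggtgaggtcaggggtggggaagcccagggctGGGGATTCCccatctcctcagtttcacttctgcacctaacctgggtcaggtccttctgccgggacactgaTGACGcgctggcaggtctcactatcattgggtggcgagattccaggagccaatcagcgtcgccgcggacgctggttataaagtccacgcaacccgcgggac
B2m, chr2:122147437-122147686, plus strand: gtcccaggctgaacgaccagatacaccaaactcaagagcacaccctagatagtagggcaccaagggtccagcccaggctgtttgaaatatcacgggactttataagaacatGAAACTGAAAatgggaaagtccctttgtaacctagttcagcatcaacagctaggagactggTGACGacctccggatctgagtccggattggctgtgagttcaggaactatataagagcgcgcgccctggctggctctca
Tap1, chr17:34187306-34187555, plus strand: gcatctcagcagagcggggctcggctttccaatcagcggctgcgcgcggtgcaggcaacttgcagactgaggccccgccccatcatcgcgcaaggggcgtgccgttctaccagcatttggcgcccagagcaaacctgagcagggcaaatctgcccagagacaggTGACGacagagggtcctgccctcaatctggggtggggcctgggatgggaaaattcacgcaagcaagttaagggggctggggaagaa

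Both heavy chain windows held the same kappaB match, GGGGATTCC, 111 to 103 bases before the start of H2-K1 and 171 to 163 before that of H2-D1. That motif was found in 4.98% of the 32851 promoter windows in the table. B2m held the ISRE core GAAACTGAAA 139 to 130 bases before its start (2.98% of all windows). The CRE core, present in 17.8% of all windows, was found in the windows of H2-K1, H2-D1, B2m and Tap1, and the Tap1 match is also the match of Psmb9, since 275 bases of their windows overlap when the first bases past each start are included. Psmb8 held a GAS match, TTCCCAGAA (7.02% of all windows), and the windows of Tapbp and Psmb10 held none of the 4 motifs. A match describes letters only and is not a measured binding site. Other spellings of these sites, ISRE variants among them, were not searched, so a window without a match can still hold a site. On chromosome 17 lie 7 of the 10 genes, in the order Tapbp, H2-K1, Psmb9, Tap1, Psmb8, Tap2 and H2-D1, with no other protein-coding gene between Psmb9 and Tap2 and 67 between Tap2 and H2-D1.

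The targeted genes followed the labels. Ago2 stood at 6.74, 6.92 and 6.65 (log2) in AGO2 null samples and at 8.24, 8.20 and 8.24 in the wild type. Dicer1 stood at 8.42, 8.35 and 8.35 in Dicer null samples and at 9.17, 9.17 and 9.20 in the wild type. Each was called higher than the wild type in the other null line. Ago2 rose by 0.91 in Dicer null and Dicer1 by 0.23 in AGO2 null cells (limma adjusted p = 8.51e-05 and 0.00628). Whether their probes lie inside the deleted parts is not given, so remaining signal checks nothing about those parts. Sample medians were 6.28 to 6.37 in the gene-level table and 6.93 to 7.10 in the exon-level table, and the number of arrays limits the precision.

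At the gene level the route was lower in Dicer null cells and mixed in AGO2 null cells. In Dicer null against wild-type cells 6 of the 7 genes with a row were called lower (limma, adjusted p under 0.05 over all rows) and none higher. Of all rows, 15.7% were called lower and 11.2% higher. Against the wild type, AGO2 null cells had 1 gene called higher (Tapbp) and 1 lower (Tap1), where 11.8% of all rows were called higher and 9.17% lower. Between the null lines 6 of 7 were called higher in AGO2 null cells and none lower, against 16.9% and 9.45% of all rows. At an unadjusted p under 0.05, limma still found none higher in Dicer null cells than in the wild type, and none lower in AGO2 null than in Dicer null cells. The median difference of the 7 genes was -0.06 in AGO2 null and -0.50 in Dicer null cells against the wild type, where the median of all rows was 0.02 and -0.01. Sample groups did not overlap for 3, 6 and 6 of the 7 genes in the order AGO2 null against wild type, Dicer null against wild type and AGO2 null against Dicer null, against 33.2%, 42.8% and 41.2% of all rows. The wild-type samples are shared by both comparisons.

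**Figure D1:**
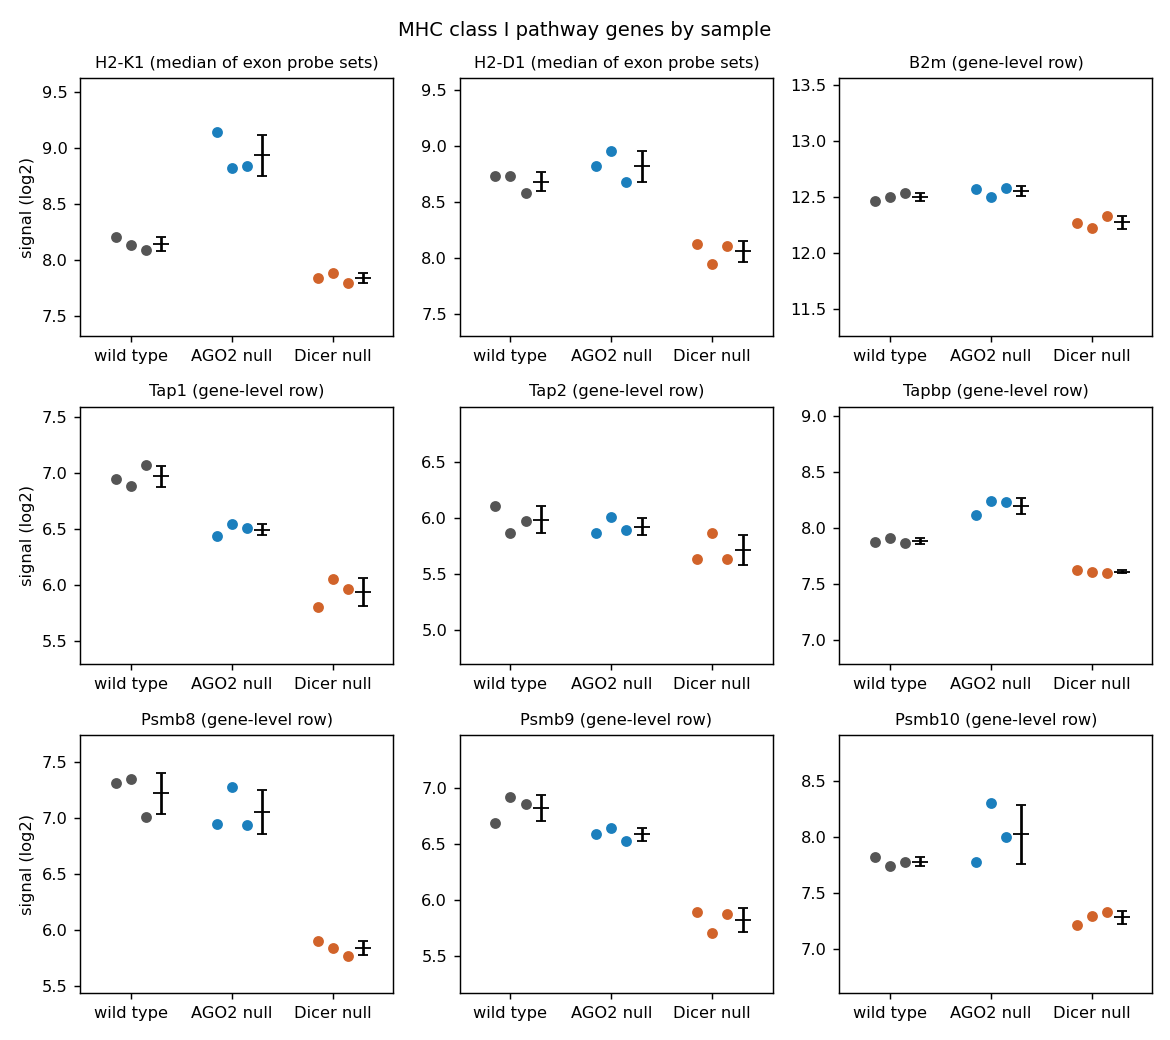
Log2 signal (y axis) of 9 class I pathway genes by genotype (x axis), with 1 point per sample and the mean ± SD (n = 3) as black bars, and all panels spanning the same log2 range. Dicer null samples lie below both other groups for every gene shown but Tap2, whose groups overlap.

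The heavy chains had no gene-level row of their own, so each was measured as the median of its exon probe sets in a sample (14 probe sets for H2-K1 and 10 for H2-D1). H2-K1 stood at 9.15, 8.83 and 8.84 in AGO2 null, 7.84, 7.88 and 7.80 in Dicer null and 8.21, 8.14 and 8.09 in wild-type samples. The 3 groups did not overlap, with AGO2 null highest and Dicer null lowest. H2-K1 rose by 0.79 in AGO2 null cells (SE 0.11, a 1.73-fold change, limma adjusted p = 0.000498). The difference of Dicer null from wild-type cells was -0.30 and was not past the threshold (SE 0.11, limma adjusted p = 0.0606). It passed in 6 of 16 alternative settings, with adjusted p from 0.0241 (rows below the median left out) to 0.0468 (without AGO2 null replicate 2), among them an offset of 50, a mean-variance trend, only the 6 samples compared and without AGO2 null replicate 1.

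H2-D1 stood at 8.82, 8.96 and 8.68 in AGO2 null, 8.12, 7.95 and 8.11 in Dicer null and 8.73, 8.73 and 8.58 in wild-type samples. AGO2 null and wild-type samples overlapped, with a difference of 0.14 (SE 0.11, limma adjusted p = 0.419), while all Dicer null samples lay below both other groups. H2-D1 fell by 0.62 in Dicer null cells (SE 0.11, limma adjusted p = 0.00129). Between the null lines H2-K1 differed by 1.10 and H2-D1 by 0.76, both higher in AGO2 null cells (limma adjusted p = 4.26e-05 and 0.000451).

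Measured this way for all 9 genes, 2 were called higher in AGO2 null cells than in the wild type (H2-K1 and Tapbp) and none lower, where 13.4% of all 16358 genes were called higher and 7.95% lower. In Dicer null cells none was called higher and 5 lower (H2-D1, Tap1, Tapbp, Psmb8 and Psmb9), against 11.3% and 17.8% of all genes. Between the null lines 7 were called higher in AGO2 null cells and none lower, against 20.4% and 7.02% of all genes. At an unadjusted p under 0.05 limma gave 1 gene lower in AGO2 null cells than in the wild type, and still none in the other directions with no call.

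B2m, the light chain of every classical class I molecule, stood at 12.58, 12.50 and 12.58 in AGO2 null, 12.27, 12.22 and 12.33 in Dicer null and 12.47, 12.50 and 12.54 in wild-type samples. Dicer null samples were lowest without overlap, and the other groups overlapped. B2m fell by 0.23 in Dicer null cells, a 1.17-fold change (SE 0.05, limma adjusted p = 0.0109), and AGO2 null cells differed from the wild type by 0.05 (adjusted p = 0.54). After median centring, the Dicer null difference was -0.15 and no longer past the threshold (adjusted p = 0.066), and as the median of exon probe sets it was -0.20 (adjusted p = 0.134).

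Of the transporter subunits, Tap1 was called against the wild type in both null lines and Tap2 in neither, and the subunits were not tested against each other. Tap1 stood at 6.44, 6.54 and 6.51 in AGO2 null, 5.81, 6.05 and 5.97 in Dicer null and 6.95, 6.89 and 7.08 in wild-type samples. The 3 groups did not overlap, and the wild type was highest. Tap1 was called lower in both null lines: it fell by 0.47 in AGO2 null cells (SE 0.08, limma adjusted p = 0.00407) and by 1.03 in Dicer null cells (SE 0.08, adjusted p = 4.01e-05). As the median of exon probe sets, the AGO2 null difference of Tap1 was -0.30 and not past the threshold (adjusted p = 0.0752). Tap1 also stood 0.55 higher in AGO2 null than in Dicer null cells (limma adjusted p = 0.00143).

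Tap2, the other transporter subunit, lies next to Psmb8 in the same cluster. It stood at 5.87, 6.01 and 5.90 in AGO2 null, 5.64, 5.87 and 5.63 in Dicer null and 6.11, 5.87 and 5.98 in wild-type samples. All groups overlapped, and no comparison was called. All its values lay below the sample medians of the gene-level table (6.28 to 6.37), and no detection measure was used. Its differences from the wild type were -0.06 in AGO2 null (SE 0.09, limma adjusted p = 0.706) and -0.27 in Dicer null cells (SE 0.09, adjusted p = 0.0594). The latter passed the threshold without Dicer null replicate 2 (-0.35, adjusted p = 0.0258) and without wild type replicate 2 (adjusted p = 0.046).

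Tapbp, which bridges the transporter and the empty heavy chain, was called in opposite directions in the null lines. It stood at 8.12, 8.24 and 8.23 in AGO2 null, 7.62, 7.60 and 7.60 in Dicer null and 7.88, 7.91 and 7.86 in wild-type samples. The wild type lay between the null lines with no overlap. Tapbp rose by 0.31 in AGO2 null cells (SE 0.05, limma adjusted p = 0.00303) and fell by 0.27 in Dicer null cells (SE 0.05, adjusted p = 0.00373). The null lines differed by 0.59 (adjusted p = 9.32e-05), which is the test of the difference between them. After quantile normalization the Dicer null difference was -0.19 (adjusted p = 0.0511).

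All 3 immunoproteasome subunits fell in Dicer null cells, and none was called in AGO2 null cells, where limma gave 1 lower at an unadjusted p under 0.05 (Psmb9). Psmb8, which takes the place of Psmb5, stood at 6.95, 7.28 and 6.93 in AGO2 null, 5.90, 5.84 and 5.77 in Dicer null and 7.31, 7.34 and 7.01 in wild-type samples. Every Dicer null sample lay more than 1 log2 unit below every other sample, and the other groups overlapped. Psmb8 fell by 1.38 in Dicer null cells, a 2.61-fold change (SE 0.12, limma adjusted p = 8.97e-05). The AGO2 null difference was -0.17 (adjusted p = 0.406). Dicer null values of Psmb8, Psmb9 and Tap1 lay below the sample medians of the gene-level table (6.28 to 6.37), so the sizes of their falls can depend on the floor. Over 17 alternative settings the falls kept their call. They ran from -1.94 to -0.89 for Psmb8, -1.32 to -0.61 for Psmb9 and -1.08 to -0.65 for Tap1.

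Psmb9, which takes the place of Psmb6, stood at 6.59, 6.64 and 6.53 in AGO2 null, 5.89, 5.70 and 5.88 in Dicer null and 6.69, 6.92 and 6.86 in wild-type samples. The groups did not overlap, with the wild type highest and AGO2 null close below it. Psmb9 fell by 1.0 in Dicer null cells (SE 0.08, limma adjusted p = 5.07e-05). The AGO2 null difference of -0.24 was not past the threshold (SE 0.08, adjusted p = 0.0762), and it passed with an offset of 50 (adjusted p = 0.0479), with rows below the median left out (adjusted p = 0.0388) and without wild type replicate 1 (adjusted p = 0.0392).

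Psmb10, which takes the place of Psmb7, lies outside the MHC. It stood at 7.77, 8.30 and 8.0 in AGO2 null, 7.22, 7.30 and 7.33 in Dicer null and 7.82, 7.74 and 7.78 in wild-type samples. Dicer null samples were lowest without overlap, and AGO2 null samples spread across the wild-type range and above it. Psmb10 fell by 0.50 in Dicer null cells (SE 0.12, limma adjusted p = 0.0172), and AGO2 null cells differed by 0.24 (SE 0.12, adjusted p = 0.214). The Dicer null call was lost without Dicer null replicate 1 (adjusted p = 0.0622), without wild type replicate 1 (adjusted p = 0.0571) and as the median of exon probe sets (-0.23, adjusted p = 0.293). Without AGO2 null replicate 1 the AGO2 null difference was 0.37 and past the threshold (adjusted p = 0.0383). Between the null lines Psmb8 differed by 1.21, Psmb9 by 0.76 and Psmb10 by 0.74 (limma adjusted p = 0.000254, 0.000305 and 0.0029).

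**Figure D2:**
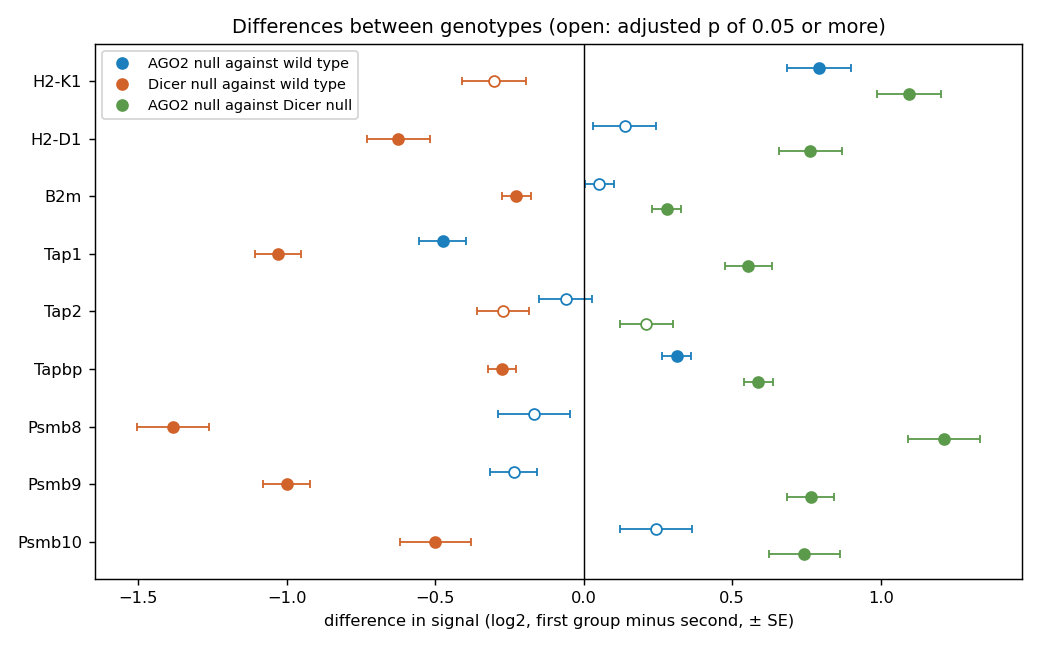
Log2 difference in signal (x axis, ± SE) between genotypes for each of 9 genes (y axis), with filled points past an adjusted p of 0.05 and H2-K1 and H2-D1 measured as medians of exon probe sets. Psmb8 (-1.38), Tap1 (-1.03) and Psmb9 (-1.0) reach farthest below the wild type in Dicer null cells, and H2-K1 (0.79) farthest above it in AGO2 null cells.

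Rows whose probes match several class I genes cannot be assigned to 1 gene, and both bright ones rose in AGO2 null cells. The row shared by H2-D1, H2-K1 and several H2-Q genes (6850135) stood at 9.86, 9.79 and 9.89 in AGO2 null, 7.82, 7.82 and 8.0 in Dicer null and 9.46, 9.08 and 9.26 in wild-type samples, with no overlap. Its difference from the wild type was 0.58 in AGO2 null (limma adjusted p = 0.0049) and -1.39 in Dicer null cells (limma adjusted p = 2.84e-05), and the null lines differed by 1.97.

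The row shared by H2-K1, H2-K2 and H2-D1 (6854990) stood at 8.82, 8.64 and 8.50 in AGO2 null, 7.56, 7.63 and 7.67 in Dicer null and 7.80, 7.45 and 7.60 in wild-type samples. AGO2 null samples lay above all others, and the other groups overlapped. It rose by 1.04 in AGO2 null cells (limma adjusted p = 0.000422), and the Dicer null difference was 0.00372 (limma adjusted p = 0.99). The other 2 shared rows with H2-D1 were dim, from 4.22 to 4.97 in all samples, and were not called. Of the 10 exon probe sets with several symbols, 3 were called higher in AGO2 null and 3 lower in Dicer null cells, all among the 4 that H2-K1 and H2-D1 share and 1 that H2-D1 shares with H2-Q genes. In that last one, 5409492, the differences were 0.48 and -0.89 (limma adjusted p = 0.0413 and 0.00131). The 5 that H2-D1 shares with H2-T3 were not called.

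The exon probe sets could not be placed on exons here, so they are given by number. Of the 93, 17 were called higher and 5 lower in AGO2 null cells (all probe sets: 9.07% higher, 6.35% lower). In Dicer null cells none was called higher and 35 lower (8.93% and 12.2% of all probe sets). Between the null lines 49 were called higher in AGO2 null cells and none lower (12.6% and 6.08%). At an unadjusted p under 0.05, limma also found none of the 93 higher in Dicer null cells than in the wild type, and none lower in AGO2 null than in Dicer null cells. The median difference of the 93 was 0.05 in AGO2 null and -0.43 in Dicer null cells, where the median of all probe sets was 0.04 and -0.03. Probe sets of 1 gene share its transcripts and are not replicates.

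Of the 14 H2-K1 probe sets, 9 passed as higher and none as lower in AGO2 null cells (unadjusted, 10 and 1), with differences from -0.55 to 2.56, and 2 were called lower in Dicer null cells. The largest difference was that of probe set 4904496, at 8.43, 8.47 and 8.73 in AGO2 null, 6.46, 6.51 and 6.43 in Dicer null and 7.08, 5.87 and 5.0 in wild-type samples. Its wild-type samples spread far more than the other groups and overlapped with Dicer null (AGO2 null difference 2.56, SE 0.42, limma adjusted p = 0.00344). Probe set 4348560 of H2-K1 went another way, at 9.22, 9.48 and 9.41 in AGO2 null, 8.19, 8.05 and 7.82 in Dicer null and 9.31, 9.22 and 9.14 in wild-type samples. Here the Dicer null samples alone stood apart, and the probe set fell by 1.20 (limma adjusted p = 0.000195).

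Of the 10 H2-D1 probe sets, 6 were called lower in Dicer null cells and 3 higher in AGO2 null cells. Probe set 4394052 stood at 8.36, 8.07 and 7.98 in AGO2 null, 5.83, 5.77 and 5.92 in Dicer null and 7.40, 7.27 and 7.24 in wild-type samples. The groups did not overlap: it rose by 0.83 in AGO2 null cells (limma adjusted p = 0.00242) and fell by 1.46 in Dicer null cells (adjusted p = 4.25e-05). The brightest H2-D1 probe set, 5524261, lay between 12.25 and 12.50 in all 9 samples and was not called. Among the 5 B2m probe sets, 5310719 alone was called lower in Dicer null cells (-0.41, limma adjusted p = 0.042), at 10.60, 10.52 and 10.57 against 10.94, 11.04 and 10.96 in the wild type.

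All 15 Tap1 probe sets were below the wild type in both null lines. In AGO2 null cells 5 were called lower, and in Dicer null cells 9, with differences from -2.74 to -0.30. Probe set 4422558 stood at 8.82, 9.05 and 9.06 in AGO2 null, 7.29, 7.43 and 7.45 in Dicer null and 10.32, 9.98 and 10.11 in wild-type samples. The wild type was highest and Dicer null lowest without overlap, with differences of -1.16 and -2.74 (limma adjusted p = 0.000423 and 1.02e-06), larger than those of the gene-level row. Probe set 4398821 of Tap1 had nearly the same sizes, at -1.05 and -2.55. Of the 14 Tap2 probe sets, 3 were called lower in Dicer null cells, and the lowest difference was -0.96 (probe set 5577351, limma adjusted p = 0.0208).

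Of the 11 Tapbp probe sets, 4 passed as higher in AGO2 null and 3 as lower in Dicer null cells. Probe set 4577634 stood at 8.44, 8.44 and 8.45 in AGO2 null and at 7.55, 7.11 and 7.24 in wild-type samples, a rise of 1.14 (limma adjusted p = 0.00142), while Dicer null samples at 7.14, 6.82 and 6.65 overlapped with the wild type. Probe set 5420314 split all 3 groups, at 10.94, 10.96 and 10.95 in AGO2 null, 9.74, 9.89 and 9.82 in Dicer null and 10.38, 10.53 and 10.47 in wild-type samples. Its differences were 0.49 and -0.65, in the directions of the gene-level row.

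All 8 Psmb8 and all 7 Psmb9 probe sets were below the wild type in Dicer null cells, with 4 of each called. Probe set 5431246 of Psmb8 stood at 8.73, 9.31 and 8.65 in AGO2 null, 5.75, 5.91 and 4.45 in Dicer null and 9.45, 9.48 and 8.93 in wild-type samples. It fell by 3.92 in Dicer null cells (SE 0.37, limma adjusted p = 7.27e-05), the largest difference among the 93, while AGO2 null and wild-type samples overlapped. Probe set 5522928 of Psmb8 fell by 3.11 (limma adjusted p = 1.05e-05), from 8.35, 8.38 and 7.86 in the wild type to 5.30, 5.18 and 4.78. For Psmb9, probe set 5356409 stood at 6.08, 6.22 and 6.20 in AGO2 null, 4.19, 3.64 and 3.86 in Dicer null and 5.95, 6.52 and 6.88 in wild-type samples. It fell by 2.56 in Dicer null cells (limma adjusted p = 5.64e-05). No detection measure was used here, so the size of a difference against such dim values depends on the floor of the probe set.

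Psmb10 had 9 probe sets, of which 3 were called lower in Dicer null and 1 higher in AGO2 null cells (4373487, 0.60, limma adjusted p = 0.0283). Probe set 5583844 stood at 9.48, 9.87 and 9.68 in AGO2 null, 8.51, 8.75 and 8.29 in Dicer null and 9.80, 9.40 and 9.57 in wild-type samples. The Dicer null samples lay about 1 log2 unit lower, with a fall of 1.08 (limma adjusted p = 0.0016). No probe set of Psmb8, Psmb9, B2m or Tap2 was called by limma between AGO2 null and wild-type cells. At an unadjusted p under 0.05, 2 of Tap2 passed (1 higher, 1 lower), 1 of Psmb9 (lower), and none of the 8 of Psmb8 or the 5 of B2m.

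**Figure D3:**
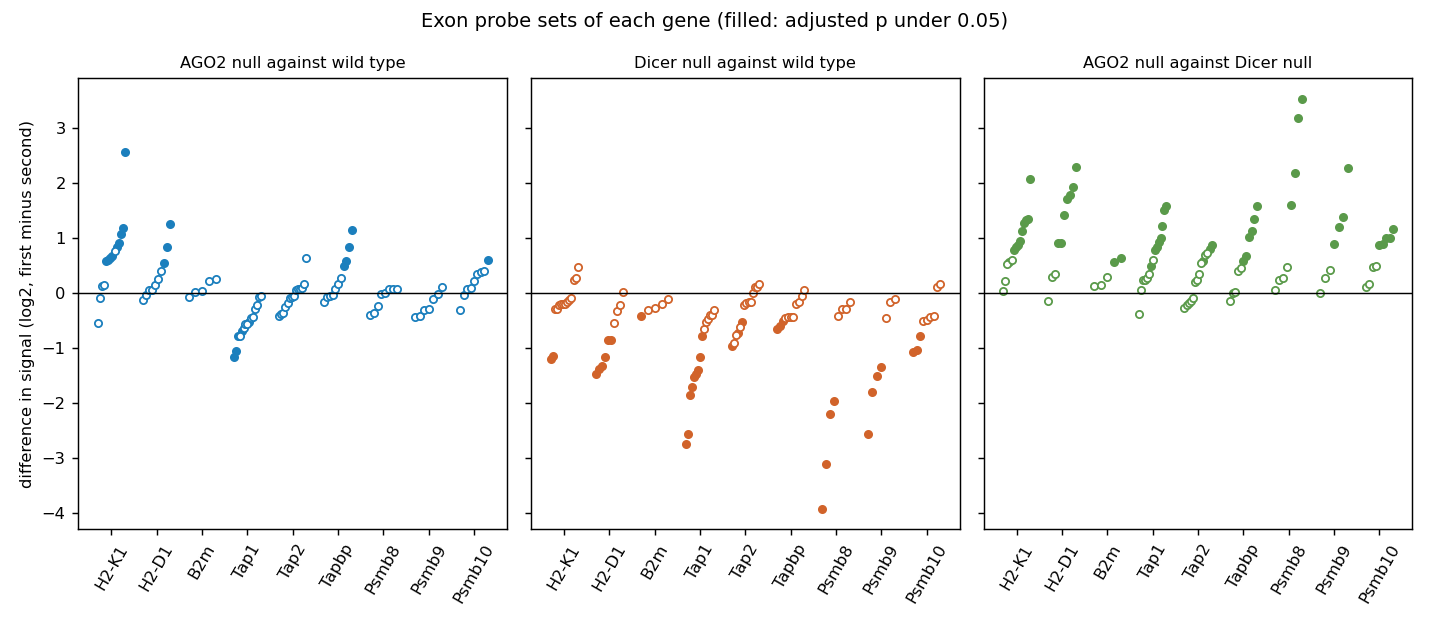
Log2 difference in signal (y axis) of every exon probe set of 9 genes (x axis, sorted within a gene), 1 panel per comparison, with filled points past an adjusted p of 0.05. In Dicer null cells the called probe sets all lie below 0, down to -3.92 for Psmb8, and in AGO2 null cells the called ones lie above 0 for H2-K1, H2-D1, Tapbp and Psmb10 and below it for Tap1.

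Exon usage was read from the splicing index, which is a probe set's log2 value minus the median of its gene's probe sets in the same sample. Only 45 probe sets entered, from H2-K1 (12), H2-D1 (9), B2m (5), Tapbp (11) and Psmb10 (8), since the level of Tap1, Tap2, Psmb8 and Psmb9 was below the median gene. The index was called for 9 of the 45 in AGO2 null against wild type (3 higher, 6 lower), 9 in Dicer null against wild type (1 higher, 8 lower) and 14 between the null lines (9 higher, 5 lower). The shares of all 114158 probe sets were 5.91%, 6.77% and 5.96%. The index of H2-K1 probe set 4904496 was 1.77 higher in AGO2 null cells (limma adjusted p = 0.0419), and that of 4873974 was lower by 1.34 (-1.34, adjusted p = 0.00278). H2-K1 probe set 4348560 had an index difference of -0.90 in Dicer null cells (limma adjusted p = 0.00939). In AGO2 null cells its index was lower too (-0.65, limma adjusted p = 0.0454). The index of 4873974 was also lower in Dicer null cells (-0.85, limma adjusted p = 0.015). Between the null lines neither 4348560 nor 4873974 was called (limma adjusted p = 0.416 and 0.119).

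In H2-D1 the index of probe set 4394052 was 1.53 higher in AGO2 null than in Dicer null cells (limma adjusted p = 0.000142), and it differed from the wild type in both (0.69 and -0.84). Between the null lines, the index of H2-D1 probe sets 5587306 and 4970695 was higher by 1.17 and 0.96 in AGO2 null cells, and that of 5524261 differed by -0.91. The last is the bright probe set whose level was not called, and the index of a probe set that does not follow its gene takes the opposite sign. The index of Tapbp probe sets 4548152 and 4797473 differed by -0.95 and -0.81 between the null lines, and that of Psmb10 probe sets 5583844 and 4595633 by -0.85 and -0.80 between Dicer null and wild-type cells. Those 2 Tapbp probe sets had near-equal mean levels in AGO2 null and Dicer null cells (8.75 and 8.89, 7.81 and 7.81). The Tapbp median was 0.81 higher in AGO2 null cells, so their index differences largely follow the median. Near-identical class I genes, or alleles that differ under a probe, are not separated from exon usage by this measure.

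Other genes of the pathway were read from gene-level rows. For this and the following lists, all rows were called higher and lower in 11.8% and 9.17% of cases in AGO2 null cells. The shares were 11.2% and 15.7% in Dicer null cells, and 16.9% and 9.45% between the null lines. A count near these shares is not read as a result about its list. Of 12 genes for peptide loading and trimming 10 were measured, and 8 were called higher in AGO2 null cells and none lower (at an unadjusted p under 0.05, 9 and none). In Dicer null cells 3 were called higher and 3 lower. Erap1, the aminopeptidase that trims peptides in the endoplasmic reticulum, stood at 7.80, 7.97 and 7.80 in AGO2 null, 7.02, 6.85 and 6.77 in Dicer null and 7.15, 7.13 and 7.20 in wild-type samples. Like Tapbp it lay above the wild type in AGO2 null cells (0.69, limma adjusted p = 0.000698) and below it in Dicer null cells (-0.28). Tapbpl, a tapasin relative and peptide editor, fell by 0.83 in Dicer null cells (limma adjusted p = 2.14e-05), from 7.33, 7.26 and 7.23 to 6.38, 6.50 and 6.44, and the translocon subunit Sec61b fell by 0.56. The chaperone calreticulin (Calr) and the cytosolic peptidase Tpp2 rose by 0.30 and 0.24 in Dicer null cells (adjusted p = 0.00243 and 0.0202). Blmh, a cytosolic peptidase, rose by 0.72 in AGO2 null cells. Lnpep, an endosomal peptidase with exon probe sets only, rose by 0.40 in AGO2 null cells (limma adjusted p = 0.0158).

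None of the constitutive catalytic subunits Psmb5, Psmb6 and Psmb7 was called lower in Dicer null cells, also at an unadjusted p under 0.05. Of 10 listed genes 8 had a row: 1 was called higher and none lower in AGO2 null cells (the same counts at an unadjusted p under 0.05), and 2 were called higher and 1 lower in Dicer null cells. Among 8 genes, such counts lie near the shares of all rows. In Dicer null cells Psmb7 rose by 0.24 (limma adjusted p = 0.0141), from 11.39, 11.49 and 11.54 in the wild type to 11.71, 11.73 and 11.70, while its counterpart Psmb10 fell. Psmb6, the counterpart of Psmb9, differed by -0.10 (limma adjusted p = 0.207). Psma7 of the proteasome's outer ring rose by 0.21. Psmb5, the counterpart of Psmb8, had exon probe sets only, with a Dicer null difference of 0.03 (limma adjusted p = 0.873). Both subunits of the interferon-inducible activator were lower in Dicer null cells: Psme1 fell by 0.28 (adjusted p = 0.00821) and Psme2, from exon probe sets, by 0.38 (adjusted p = 0.0353). The gene-level count was taken without Psme2 and Psmb5.

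Among 21 other class I and class I-like genes 5 had a row of their own, of which 1 was called higher and 1 lower in AGO2 null cells, and none higher and 2 lower in Dicer null cells (at an unadjusted p under 0.05, none and 3). H2-M2, a class I-like gene at the far end of the MHC, stood at 7.53, 7.69 and 7.10 in AGO2 null, 4.48, 4.32 and 4.53 in Dicer null and 4.06, 4.57 and 3.92 in wild-type samples. It rose by 3.25 in AGO2 null cells (SE 0.20, limma adjusted p = 2.42e-05), and the other groups overlapped at the dim end. Mr1, which presents vitamin metabolites to T cells, stood at 6.52, 6.54 and 6.30 in Dicer null and 9.02, 9.50 and 9.49 in wild-type samples, a difference of -2.88 (limma adjusted p = 8.85e-06). AGO2 null samples, at 8.82, 8.67 and 9.14, overlapped with the wild type. Fcgrt, the heavy chain of the neonatal Fc receptor, which pairs with B2m, fell by 0.61 in AGO2 null and by 1.56 in Dicer null cells (limma adjusted p = 0.00184 and 5.84e-06).

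Several non-classical class I genes of the H2-Q and H2-T groups had exon probe sets only and were measured as medians of few probe sets. Those described here were picked out after their values were seen. H2-T23, which shows leader peptides of other class I chains to natural killer cells, stood at 7.16, 7.80 and 7.31 in AGO2 null, 4.86, 5.71 and 4.74 in Dicer null and 5.95, 7.02 and 7.16 in wild-type samples. Dicer null samples lay below all others, and the rest overlapped, for a fall of 1.60 in Dicer null cells (2 probe sets, limma adjusted p = 0.00539). H2-T10 was called in both lines, higher by 1.07 in AGO2 null and lower by 1.30 in Dicer null cells (6 probe sets, limma adjusted p = 0.00472 and 0.000884). It stood at 6.33, 5.98 and 6.09 in AGO2 null, 3.39, 4.11 and 3.79 in Dicer null and 5.39, 4.72 and 5.09 in wild-type samples. All these values lay below the sample medians of the exon-level table (6.93 to 7.10). H2-Q7 fell by 0.58 in Dicer null cells (4 probe sets, limma adjusted p = 0.00593). H2-Q8, H2-T3 and Cd1d1 were not called in any comparison. The H2-Q and H2-T genes are similar in sequence to each other and to H2-K1 and H2-D1, so their signals can share transcripts.

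**Figure D4:**
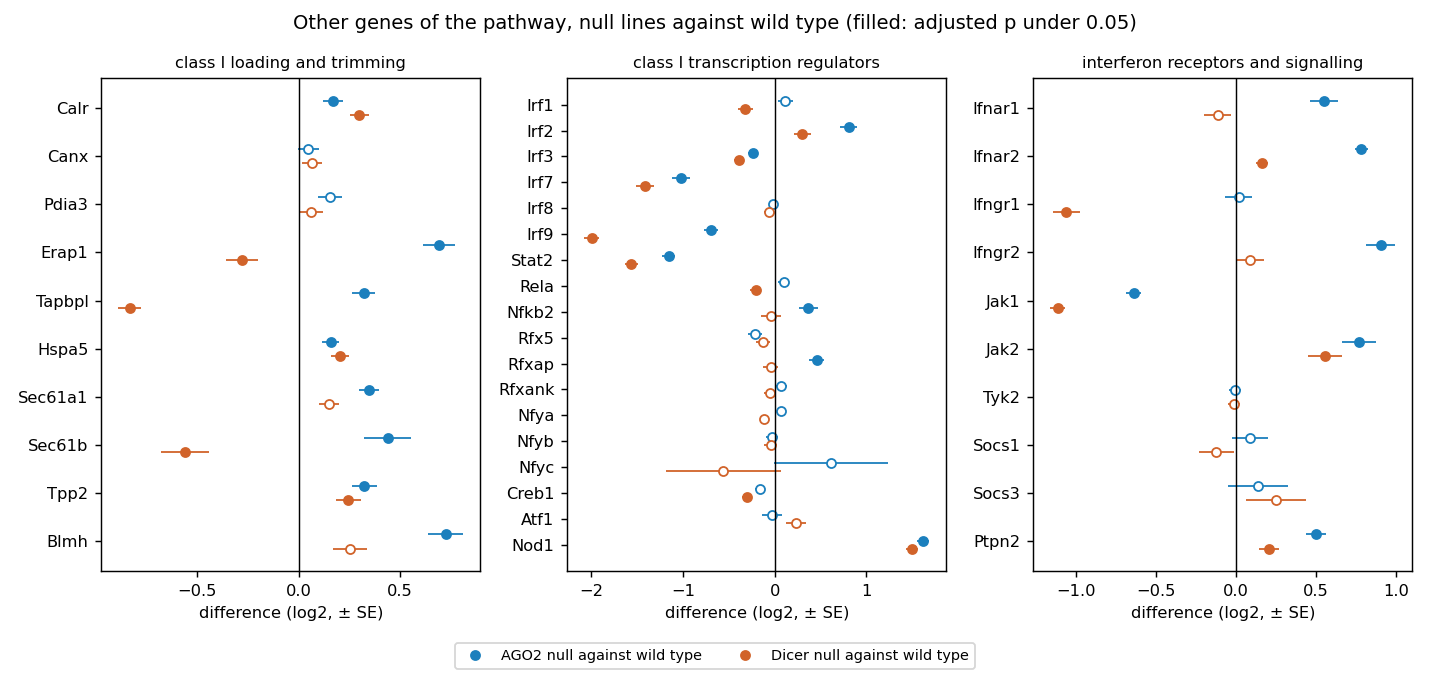
Log2 difference from the wild type (x axis, ± SE) in AGO2 null (blue) and Dicer null (orange) cells for measured genes of 3 pathway lists (y axis), with filled points past an adjusted p of 0.05 and panels on their own scales. Stat2, Irf7 and Irf9 lie below 0 in both lines, Nod1 and Irf2 above 0 in both, and Erap1, Tapbpl and Sec61b on opposite sides.

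Of 22 genes listed as transcription regulators linked to class I genes 18 were measured. Of these, 4 were called higher and 4 lower in AGO2 null cells, and 2 higher and 7 lower in Dicer null cells. Between the null lines 9 were called higher and none lower (unadjusted, 11 and 1). The list also holds Nod1, which is not itself a transcription regulator and is 1 of the genes counted higher in each null line. Irf9, the DNA-binding part of the complex that carries type I interferon signals to the nucleus, stood at 8.06, 8.17 and 8.05 in AGO2 null, 6.90, 6.65 and 6.82 in Dicer null and 8.79, 8.72 and 8.86 in wild-type samples. The groups did not overlap, with the wild type highest, as for Tap1, and Irf9 fell by 0.70 in AGO2 null and by 2.0 in Dicer null cells (limma adjusted p for Dicer null 1.1e-06). Its partner Stat2 fell by 1.16 in AGO2 null and 1.57 in Dicer null cells (limma adjusted p = 2e-05 and 2e-06), and the interferon-induced factor Irf7 fell by 1.02 and 1.42. Irf1, the interferon-gamma induced activator of class I, Tap1 and Psmb9, fell by 0.33 in Dicer null cells (limma adjusted p = 0.0209). Irf2, which can compete with Irf1, rose by 0.81 in AGO2 null and 0.30 in Dicer null cells, and Nod1, a cytosolic receptor of bacterial peptidoglycan, by 1.62 and 1.49.

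Of 11 interferon receptor and signalling genes 10 were measured, with 5 called higher and 1 lower in AGO2 null cells and 3 higher and 2 lower in Dicer null cells. The kinase Jak1, shared by type I and type II receptors, stood at 10.88, 10.97 and 10.94 in AGO2 null, 10.51, 10.44 and 10.42 in Dicer null and 11.59, 11.57 and 11.56 in wild-type samples. It fell by 0.64 and 1.11 (limma adjusted p = 6.63e-05 and 1.68e-06). Ifngr1, the ligand-binding chain of the interferon-gamma receptor, fell by 1.06 in Dicer null cells (limma adjusted p = 5.23e-05), from 8.65, 8.55 and 8.66 to 7.51, 7.52 and 7.64. In AGO2 null cells Ifngr2 and Ifnar2, a chain each of the type II and type I receptors, rose by 0.90 and 0.78, and Jak2 rose by 0.55 in Dicer null cells (adjusted p = 0.00573).

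Of 12 listed class II presentation genes 7 had a row, with 1 called higher and none lower in AGO2 null cells (unadjusted, 2 and 1) and 1 called higher and 1 lower in Dicer null cells. All rows were called higher and lower in 11.8% and 9.17% of cases in AGO2 null cells and in 11.2% and 15.7% in Dicer null cells, so these counts lie near the background. Ifi30, the lysosomal thiol reductase, rose by 0.49 and 0.37, and H2-DMa, at 4.28, 4.15 and 4.21 in Dicer null and 4.60, 4.37 and 4.90 in wild-type samples, fell by 0.41 (limma adjusted p = 0.0395) at a dim level. H2-DMb1, with 1 exon probe set, fell by 1.11 in Dicer null cells (limma adjusted p = 0.00958). Of 11 listed ligands of natural killer cell and immune checkpoint receptors 4 had a row, with 1 called higher and none lower in AGO2 null cells (the same counts unadjusted) and 1 each way in Dicer null cells. Cd274 (PD-L1) rose by 0.58 and the NKG2D ligand Raet1e fell by 0.92 in Dicer null cells (limma adjusted p = 0.00608 and 0.00265), and Cd47 rose by 0.53 in AGO2 null cells.

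Fibroblast markers moved with genotype beside these genes. Of all rows, 11.2% were called higher and 15.7% lower in Dicer null cells, and 11.8% and 9.17% in AGO2 null cells. Of 10 fibroblast markers 9 were called lower and none higher in Dicer null cells (the same counts at an unadjusted p under 0.05), among them Col1a2 (-3.68) and Thy1 (-3.16). Their summed linear signal was 7769 to 7802 in Dicer null, 14085 to 14624 in wild-type and 16651 to 17167 in AGO2 null samples. In AGO2 null cells 5 fibroblast markers were called higher and 1 lower (at an unadjusted p under 0.05, 6 and 1). Of 7 measured epithelial markers, 2 were called higher and none lower in Dicer null cells (Krt18, by 4.30, and Krt19, by 3.52, and the same counts unadjusted), with a median difference of 0.09 over the 7. In AGO2 null cells 3 were called higher and none lower (unadjusted, 4 and none). Summed epithelial signal was 3810 to 4070 in Dicer null, 483 to 536 in wild-type and 1229 to 1693 in AGO2 null samples. The part of these differences in the fall of the class I genes was not tested. In bulk samples, fewer cells of a type and less RNA per cell cannot be told apart.

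Of 12 measured macrophage and leukocyte markers none was called higher and 1 lower in AGO2 null cells (the same counts unadjusted), and 1 higher and 2 lower in Dicer null cells, where 11.2% of all rows were called higher and 15.7% lower. Their summed signal was 494 to 593 in AGO2 null, 524 to 534 in Dicer null and 586 to 606 in wild-type samples. Cd68 fell by 0.77 and 0.75, and Csf1r rose by 1.11 in Dicer null cells. Of 9 T and natural killer cell markers none was called in any comparison (limma, with 1 at an unadjusted p under 0.05, between the null lines), and of 7 dendritic and B cell markers 1 was called, Zbtb46 in Dicer null cells (0.30). Of 8 endothelial markers 1 was called higher and 1 lower in AGO2 null cells (Kdr and Erg) and 1 lower in Dicer null cells. These arrays have no true zero, so no marker could be given as absent, and the part of these markers in the class I differences was not tested.

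The 5 genes outside the route whose profile over the 9 samples lay closest to the median profile of the class I genes were Tmem134, Rab34, Smim14, Anxa5 and Qdpr. Their root mean square distances from it were 0.0688 to 0.0768 log2 units, among 14840 genes searched. The 7 class I genes with a gene-level row themselves lay 0.142 (Psmb10) to 0.380 (Psmb8) from it. The outside genes were picked as the closest of all those searched, so their smaller distances follow from that choice.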

How the data were processed

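RNA of MEFs was measured on Affymetrix Mouse Exon arrays. The authors deposited log2 signal values, 1 column per sample, for genes and for exon probe sets. How background, summarisation and normalization were handled is not given in the sources used here; the submitters' processing notes name only the build mm8. Symbols came from the platform annotation, updated with RefSeq GRCm38.p6 (names and promoters only): 14996 gene-level rows had 1 symbol, 1019 several and 7317 none, as had 209279, 4446 and 15856 exon probe sets.

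The tests used limma 3.58.1 under R 4.3.3 (lmFit, eBayes, group means over all 9 samples), with Benjamini-Hochberg adjustment over all rows of a table and a call at an adjusted p under 0.05. A log2 difference is the first group minus the second. The splicing index took genes of 4 or more probe sets whose level reached that of the median gene, and of these the probe sets that reached the 25th percentile. The code was tested on simulated data; groups came from the genotype labels. Named list genes were up to 2 called rises and 2 falls per list and comparison with the largest differences. Further named genes, those with exon medians only and Irf1 among them, were picked with their values known. The class I genes and all lists were chosen with earlier results of these data known, so nothing here is independent support for them.

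Alternatives were quantile normalization, median centring, an offset of 50 on the linear scale, leaving out rows below the median, a mean-variance trend, a replicate block, only the 6 samples compared, medians of exon probe sets, and leaving out each sample. Replicate numbers did not pair the samples (correlations of deviations from -0.0973 to 0.191).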

Additional observations from a re-analysis of the deposited data

How the results depend on the processing

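Counts of called features changed by over 1.5 times in few settings. With an offset of 50, the splicing index calls went from 9 to 16 in Dicer null against wild type and from 14 to 25 between the null lines. With only the 6 samples compared, they went from 9 to 2 in AGO2 null against wild type. With rows below the median left out, the exon probe sets called in Dicer null cells went from 35 to 23, where fewer probe sets were tested. For the others the cause was not tested.

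Leaving out 1 sample gave, in the order AGO2 null against wild type, Dicer null against wild type and AGO2 null against Dicer null, 2 to 3, 5 to 7 and 6 to 6 member genes, 17 to 22, 30 to 36 and 39 to 49 exon probe sets, 3 to 7, 7 to 10 and 9 to 12 splicing index calls and 23 to 28, 19 to 30 and 22 to 28 genes of the pathway lists, where all samples gave 27, 29 and 29. The pathway count of 19 came without Dicer null replicate 2. Splicing index calls in AGO2 null against wild type numbered 3 without AGO2 null replicate 1, AGO2 null replicate 3 or wild type replicate 2, and 5 without Dicer null replicate 2, Dicer null replicate 3 or wild type replicate 3, and between the null lines 9 without AGO2 null replicate 3 or Dicer null replicate 3.

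Signs turned for values near 0 that were never called. These were Tap2 in AGO2 null cells (0.00101 without wild type replicate 1, in a range from -0.118 to 0.00101 when 1 sample was left out), B2m in AGO2 null cells (-0.0648 as the median of exon probe sets) and the row shared by H2-K1, H2-K2 and H2-D1 in Dicer null cells (-0.0226 without Dicer null replicate 3, -0.0797 without wild type replicate 2 and -0.00398 without wild type replicate 3, in a range from -0.0797 to 0.0949). Of 450 values of single genes under alternatives, 428 kept their direction and side of the threshold, 8 lost and 12 gained a call and 2 turned sign.

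With the replicate number as a block, the member genes called stayed at 2, 6 and 6, and the other counts stayed within 1.5 times. Under the block the calls of B2m probe set 5310719 in Dicer null cells (adjusted p = 0.0743) and of Psmb10 probe set 4373487 in AGO2 null cells (adjusted p = 0.0638) were lost; the samples share only a number, so this is no sign of a weaker effect. No detection calls were used, so what lies above background is not known for the dim probe sets.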
